A study of Mus musculus with 18 samples.

Results

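The intermediate filament genes described here are Vim, which encodes vimentin, and the 5 keratin genes Krt7, Krt8, Krt17, Krt18 and Krt19. They were taken by gene name from the deposited tables, where all 6 were found among 49845 gene names, and all 6 passed the filter on low values that left 16718 genes for testing. They were chosen as a family, with earlier results of these data known.

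The cells were IMCD3, mouse epithelial cells derived from kidney collecting ducts of the inner medulla, with Tg(SV40E)bri/7, a transgene carrying the SV40 early region, given as the strain background of every group and passages 10 to 15 for all samples. Cells of the Dync2h1 knockout, of the Ift140 knockout and of the wild type (WT) were either exposed to flow, a fluid shear stress of about 0.7 dyne/cm2 for 3 h, or kept static for the same time. Each of these 6 groups holds 3 libraries, 18 in all. The labels say neither whether the 3 libraries came from separate cultures nor how many clones stand for a knockout, so p-values measure the spread between these samples, which may be technical, and a difference between knockout and WT cannot be told apart from a difference between clones.

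Intermediate filaments are the tough, non-polar filaments of the cytoplasm. Keratins form them only as pairs of a type I chain (Krt17, Krt18, Krt19) with a type II chain (Krt7, Krt8), while vimentin, a type III protein typical of mesenchymal cells and common in cultured epithelial cells, assembles with itself. Krt8 and Krt18 are the main pair of simple epithelia, Krt7 and Krt19 are found in ducts, and Krt17 is a keratin of skin appendages that injured or stressed epithelia induce. Ift140 is a subunit of the IFT-A complex and Dync2h1 the heavy chain of the dynein-2 motor, both of which carry cargo back from the tip of the primary cilium.

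Levels are TPM, each gene's share of the transcripts of its library corrected for gene length, scaled between libraries. Changes are differences of log2(scaled TPM + 1), which understate the change of low genes, and a gene was called when its Benjamini-Hochberg adjusted p from limma, over all 16718 genes, was under 0.05. Some counts are also given at an unadjusted p under 0.05. The share of all genes at that threshold was not computed, so those counts have no background to be read against. TPM keep no sequencing depth, so the depth behind each value is unknown.

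Dync2h1 itself was at 7.07, 10.0 and 10.4 TPM under flow and 15.1, 9.55 and 15.4 TPM static in Dync2h1 knockout cells, against 35.5, 28.1 and 31.004 TPM under flow and 40.4, 45.4 and 33.7 TPM static in WT. Ift140 was at 7.65, 8.53 and 15.4 TPM under flow and 6.26, 6.44 and 7.45 TPM static in Ift140 knockout cells, against 16.5, 15.1 and 18.5 TPM under flow and 16.5, 19.5 and 18.7 TPM static in WT. Replicate 3 of the library set labelled Ift140 knockout flow thus lay inside the WT range for the deleted gene. In the same library Cubn was at 5.996 TPM and Krt20 at 11.1 TPM, against WT flow means of 378 and 1.49 TPM. Krt17 was at 9.02 TPM there, against 17.2 TPM or more in the WT flow libraries. Dync2h1 was at 42.3 TPM, beside 22.9 and 28.5 TPM in replicates 1 and 2 of that group. What sets replicate 3 apart was not tested. The changes, counts of calls and ratios that rest on it are also given without it. Epithelial genes were present in every group, with Epcam between 176 and 467 TPM and Cdh16 between 216 and 448 TPM over the 18 libraries, while Aqp2, the vasopressin-regulated water channel that defines principal cells of the collecting duct, did not exceed 0.0746 TPM.

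Entries for 4 of the 6 genes are in the RefSeq promoter table for GRCm38.p6, which spans 250 bases before to 50 after the annotated start. The 3 shown are those of Vim, the gene with the widest range of levels, and of Krt8 and Krt18, whose levels moved together under flow. Capitals mark TATAAA, the core of the TATA box, or its reverse complement.
Vim: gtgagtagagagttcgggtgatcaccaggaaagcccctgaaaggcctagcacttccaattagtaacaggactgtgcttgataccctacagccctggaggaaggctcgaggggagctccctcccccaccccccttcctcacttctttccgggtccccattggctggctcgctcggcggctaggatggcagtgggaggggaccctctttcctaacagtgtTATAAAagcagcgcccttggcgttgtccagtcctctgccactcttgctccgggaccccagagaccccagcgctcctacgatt
Krt8: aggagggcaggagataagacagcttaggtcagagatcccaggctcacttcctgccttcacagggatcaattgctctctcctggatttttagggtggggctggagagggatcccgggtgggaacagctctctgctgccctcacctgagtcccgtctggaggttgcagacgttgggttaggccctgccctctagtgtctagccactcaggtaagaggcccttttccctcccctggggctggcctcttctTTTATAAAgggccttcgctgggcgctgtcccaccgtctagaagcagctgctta
Krt18: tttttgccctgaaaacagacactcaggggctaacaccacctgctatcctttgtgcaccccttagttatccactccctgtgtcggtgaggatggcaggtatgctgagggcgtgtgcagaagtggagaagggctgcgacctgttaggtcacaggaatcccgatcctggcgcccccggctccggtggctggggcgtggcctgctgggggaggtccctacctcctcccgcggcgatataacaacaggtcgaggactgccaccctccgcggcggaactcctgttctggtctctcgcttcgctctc

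The Vim window is chr2:13574061-13574360 on the plus strand, that of Krt8 chr15:102004293-102004592 on the minus strand, and that of Krt18 chr15:102027966-102028265 on the plus strand. In Vim, TATAAA begins 32 bases before the start. In Krt8 it begins 1 base before the annotated start and overlaps a match on the other strand that begins 3 bases before it. Krt18 held none of the 4 motifs searched on both strands, which were TATAAA, the GC box GGGCGG, the AP-1 motif TGANTCA and the TEAD motif GGAATG. The window of Krt7, not shown, held GGGCGG at 4 places, at 141 and 128 bases before the start on its own strand and at 56 and 24 bases before it on the other. Of 32851 mouse promoters of the same length, 13.6% held TATAAA, 35.7% GGGCGG, 7.81% TGANTCA and 14.7% GGAATG, so each match is one that many promoters share.

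Krt8 and Krt18 lie back to back on chromosome 15 of GRCm38 (GENCODE vM21), Krt8 at 101996698 to 102004482 on the minus strand and Krt18 at 102028180 to 102032027 on the plus strand, 23.7 kb apart. Krt7 lies 566.4 kb from Krt8, at 101411043 to 101430313 on the plus strand. Krt19, at 100140810 to 100148665, and Krt17, at 100256217 to 100261029, are on the minus strand of chromosome 11 with a gap of 107.6 kb. Vim is at 13573927 to 13582826 on the plus strand of chromosome 2. All 6 are protein coding.

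The 5 keratins held 98.6% to 99.5% of the TPM of all 54 keratin gene names in every library. Krt8 was the highest of them, with group means from 1161 to 2158 TPM and a rank between 17 and 55 among all genes. Krt18 came next, between 648 and 1366 TPM, followed by Krt19, between 372 and 439.9 TPM, and Krt7, between 295 and 465 TPM. Krt17 was far below, between 4.93 and 20.2 TPM. In WT cells Vim averaged 336 ± 10.1 TPM under flow and 272 ± 5.38 TPM static (SD, n = 3 each). Under flow every WT library had more Vim than Krt7 and less than Krt19, and in static WT cells Vim lay below both in every library. Krt7 and Krt19 were neighbours in this order that changed places: Krt7 averaged 465 ± 14.6 TPM and Krt19 397 ± 7.41 TPM in static Dync2h1 knockout cells, against 309.5 ± 9.76 TPM for Krt7 and 372 ± 24.0 TPM for Krt19 in static WT cells.

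**Figure D1:**
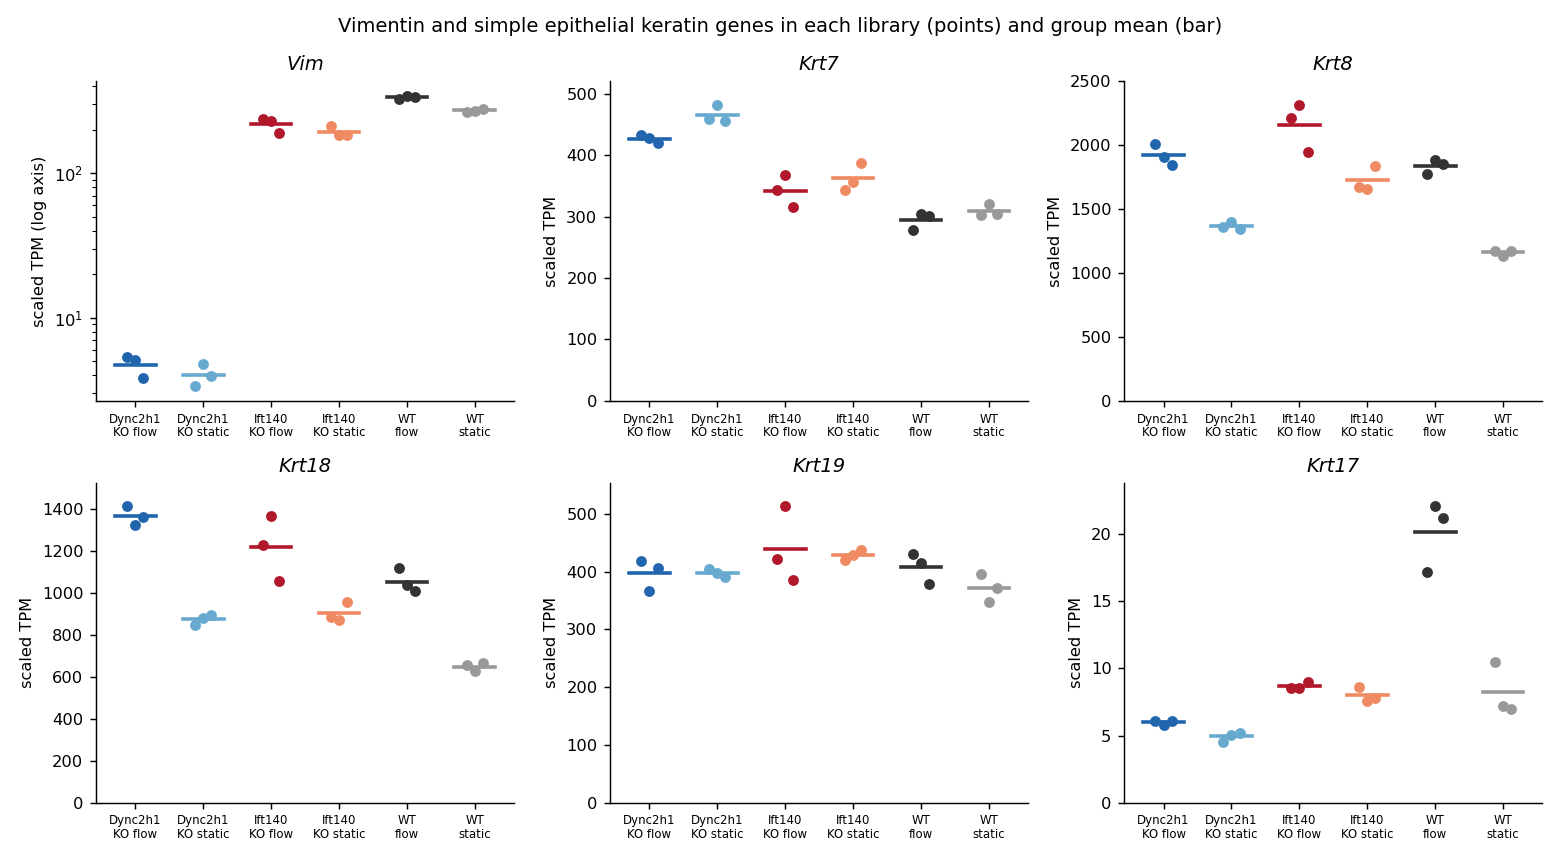
Scaled TPM of the 6 genes in each of the 18 libraries (points) with the mean of each group of 3 (bars); the Vim axis is logarithmic and the others start at 0. Vim lies between 3.36 and 5.35 TPM in all 6 Dync2h1 knockout libraries, and Krt17 reaches 17.2 TPM or more only in the 3 WT flow libraries.

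Vim RNA was scarce in the Dync2h1 knockout line. Under flow Vim was at 5.35, 5.07 and 3.82 TPM in Dync2h1 knockout cells, at 238, 231 and 189.7 TPM in Ift140 knockout cells and at 325, 344 and 339 TPM in WT. In static culture it was at 3.36, 4.77 and 3.94 TPM in Dync2h1 knockout cells, at 211, 185 and 184 TPM in Ift140 knockout cells and at 267, 271 and 278 TPM in WT. The 3 genotypes did not overlap in either condition, and their order was the same under flow and static.

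Dync2h1 knockout cells had 70.8-fold less Vim TPM than WT under flow (log2 change -5.88, 95% interval -6.13 to -5.64, adjusted p = 1.51e-14) and 67.6-fold less in static culture (-5.77, -6.02 to -5.53, adjusted p = 2.01e-14). Vim ranked 11450th under flow and 11982nd static by its mean in the knockout line, against 378th and 475th in WT. It made up 0.115% ± 0.0177 of the summed TPM of the 6 genes under flow and 0.129% ± 0.0208 static, against 8.51% ± 0.24 and 9.82% ± 0.268 in WT (SD, n = 3 each). The fall in the Ift140 knockout line was 1.53-fold under flow (log2 change -0.62, adjusted p = 0.002) and 1.41-fold static (-0.49, adjusted p = 0.00796). With the library labelled as replicate 3 of Ift140 knockout flow left out, the change under flow was -0.52 (adjusted p = 0.00881). Set directly against the Ift140 line, the Dync2h1 line was lower by 46.3-fold under flow (49.5-fold without that library) and by 48.1-fold static.

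Vim is also expressed by fibroblasts, and in a bulk sample fewer cells of a type and less RNA per cell cannot be told apart. The 8 fibroblast markers (Col1a1, Col1a2, Col3a1, Pdgfra, Pdgfrb, Dcn, Lum and Thy1) summed to 0.394 to 0.822 TPM under flow and 0.303 to 1.07 TPM static in Dync2h1 knockout libraries, to 1.02 to 4.62 TPM under flow and 0.523 to 1.01 TPM static in Ift140 knockout libraries, and to 1.99 to 2.22 TPM under flow and 1.71 to 2.96 TPM static in WT. The highest Ift140 knockout flow value was that of replicate 3, beside 1.02 and 3.37 TPM in the other 2. In the Dync2h1 line the sums lay below those of WT in both conditions, and in the Ift140 line they did so in static culture. Of the 8, 1 averaged at least 1 TPM in WT and 0 did in the Dync2h1 line, and Lum was listed at 0 in all 18 libraries. The summed markers were thus under 3 TPM in every WT library, beside a Vim level of 267 TPM or more. Of the 16 markers of collecting duct and renal epithelium 7 were tested, and against WT the Dync2h1 line had 3 higher (Epcam, Cdh1 and Cdh16) and 0 lower by limma under flow (1 lower, Pax8, at an unadjusted p under 0.05), where 16.1% of all genes were higher and 14.0% lower. In static culture 2 were higher (Epcam and Cdh1) and 1 lower (Scnn1g, -0.88, adjusted p = 0.00863), where 13.5% and 14.1% of all genes were called. Scnn1g was low, averaging 0.0172 TPM in static Dync2h1 knockout and 0.880 TPM in static WT cells. Pax8 averaged 36.7 ± 3.88 TPM in Dync2h1 knockout and 52.7 ± 2.14 TPM in WT cells under flow (-0.51, adjusted p = 0.0631). Epcam averaged 455 ± 10.4 TPM in Dync2h1 knockout and 224 ± 21.2 TPM in WT cells under flow (adjusted p = 2.71e-06), and Cdh1, which encodes E-cadherin, averaged 88.7 ± 5.87 TPM and 48.5 ± 6.25 TPM (adjusted p = 0.00334; SD, n = 3 each). Their part in the Vim result was not tested.

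The protein-coding neighbours of Vim that averaged over 1 TPM are given beside it, without a test. Trdmt1, an RNA methyltransferase gene with a gap of 29.3 kb to Vim, averaged 8.82 ± 1.22 TPM in static Dync2h1 knockout, 8.76 ± 3.63 TPM in Ift140 knockout and 9.94 ± 1.11 TPM in WT cells (SD, n = 3 each). Rsu1, 302.5 kb away on the same side, averaged 23.9 ± 2.88, 26.5 ± 2.55 and 33.7 ± 3.49 TPM in the same 3 groups, and Stam, 491.3 kb away on the other side, 47.2 ± 3.74, 44.1 ± 1.60 and 57.0 ± 3.73 TPM. Hacd1, a gene of very-long-chain fatty acid elongation 267.5 kb away on that side, averaged 3.55 ± 0.33, 3.95 ± 0.698 and 4.31 ± 0.671 TPM. Cubn, the gene of the endocytic receptor cubilin and 82.1 kb from Vim, was at 3.98 ± 0.333 TPM in static Dync2h1 knockout and 3.28 ± 0.904 TPM in static Ift140 knockout cells, against 409.6 ± 2.69 TPM in WT, so it was near 4 TPM in both lines, while Vim was near that level in the Dync2h1 line alone.

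**Figure D2:**
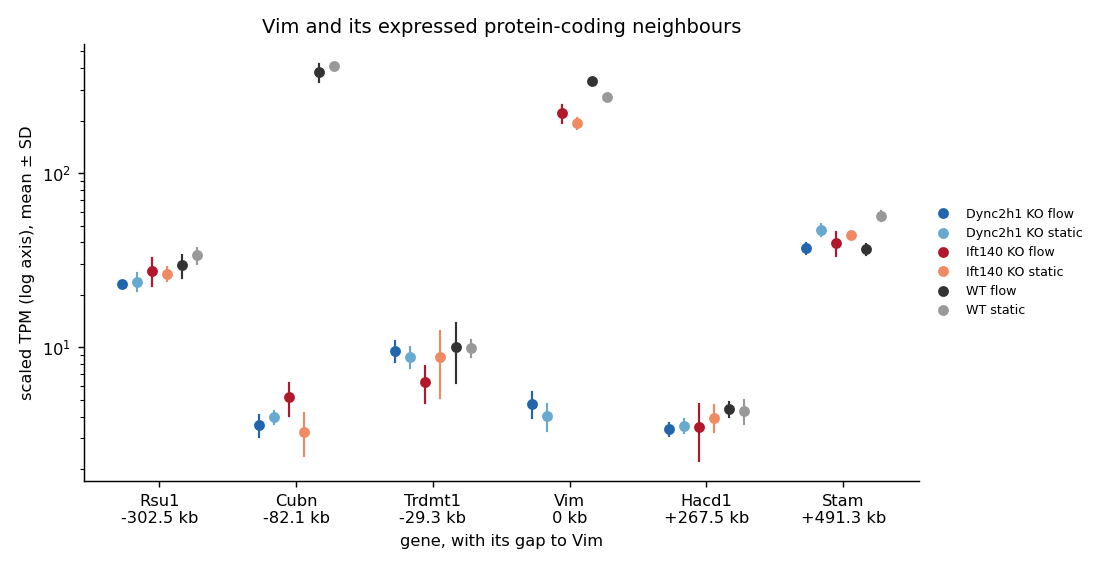
Mean scaled TPM ± SD (3 libraries a group, logarithmic axis) of Vim and of its neighbours that averaged over 1 TPM, ordered along the chromosome with the gap to Vim in kb. Vim is at about 4 to 5 TPM in the Dync2h1 knockout groups alone, while Cubn is between 3 and 6 TPM in all 4 knockout groups and at 378 TPM or more in both WT groups.

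The genes whose log2 levels followed Vim most closely over the 18 libraries, among 9633 candidates, were Bend4 (Pearson r = 0.992), Acta2 (0.992) and Ociad2 (0.991). The correlation rests on the gap between the Dync2h1 libraries and the rest. Acta2, which encodes smooth muscle actin, averaged 0.142 TPM in static Dync2h1 knockout, 17.8 TPM in static Ift140 knockout and 20.1 TPM in static WT cells, and Ociad2 averaged 0.0876, 13.1 and 14.5 TPM in the same groups. Without Ift140 knockout flow replicate 3 the 3 correlations were 0.996, 0.993 and 0.991.

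Flow gave no called change of Vim in any genotype, but in WT the call depended on the fit. The log2 change was 0.19 in Dync2h1 knockout (95% interval -0.05 to 0.44, adjusted p = 0.285), 0.18 in Ift140 knockout (-0.07 to 0.43, adjusted p = 0.338; 0.28, adjusted p = 0.125, without Ift140 knockout flow replicate 3) and 0.30 in WT cells (0.06 to 0.55, adjusted p = 0.0803). The 3 WT flow libraries all lay above the 3 static ones. The same change of 0.30 was called in a fit on the 6 WT libraries alone (adjusted p = 0.00634) and with a pseudocount of 5 (adjusted p = 0.0257). The adjusted p for Vim in WT was also 0.0473 with the library labelled as replicate 3 of Ift140 knockout flow left out, 0.0483 without Dync2h1 knockout static replicate 1 and 0.0489 without Dync2h1 knockout flow replicate 3.

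Nes, which encodes nestin, a large filament protein that assembles together with vimentin, was expressed in all 3 genotypes, the line with little Vim RNA included. It averaged 147.5 ± 6.18 TPM under flow and 102 ± 2.30 TPM static in Dync2h1 knockout cells, 142 ± 8.14 and 97.2 ± 15.0 TPM in Ift140 knockout cells, and 174 ± 2.86 and 84.2 ± 0.922 TPM in WT (SD, n = 3 each). Nes rose with flow in all 3 genotypes, with log2 changes of 0.53 in Dync2h1 knockout (adjusted p = 0.000344), 0.55 in Ift140 knockout (adjusted p = 0.000284; 0.60 without its flow replicate 3) and 1.04 in WT (adjusted p = 3.46e-07). Of 14 other intermediate filament genes, 6 were tested. Flow raised 3 and lowered 0 by limma in the Dync2h1 line (1, Synm, was lower at an unadjusted p under 0.05), raised 2 and lowered 1 in the Ift140 line and raised 2 and lowered 1 in WT, with list medians of 0.16, -0.15 and -0.08 beside 0.01, 0.01 and -0.01 over all genes. Of all genes, 10.8% were called higher and 8.15% lower in the Dync2h1 line, 9.21% and 8.27% in the Ift140 line and 10.2% and 10.3% in WT. The others called were lamins, the filament proteins of the nucleus. Lmna rose in the Dync2h1 line (0.53) and in WT (0.24), Lmnb1 in the Dync2h1 (0.40) and Ift140 (0.27) lines, and Lmnb2 fell in the Ift140 line (-0.42) and in WT (-0.34). Without Ift140 knockout flow replicate 3 the Lmnb1 call in that line ended (0.21, adjusted p = 0.113), which left 1 higher and 1 lower, and Lmnb2 was at -0.33 (adjusted p = 0.0168). In that fit 8.88% of all genes were called higher and 7.73% lower.

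Under flow, Krt8 and Krt18 rose in every genotype. The calls over the 6 genes were 2 higher and 0 lower in Dync2h1 knockout cells, where 10.8% of all genes were called higher and 8.15% lower, 2 higher and 0 lower in Ift140 knockout cells (9.21% and 8.27% of all genes), and 3 higher and 0 lower in WT (10.2% and 10.3% of all genes). At an unadjusted p under 0.05 limma gave 2, 2 and 4 higher, the fourth in WT being Vim, and likewise 0 lower in each. The shares of all genes just given are for the adjusted p and not for this threshold. The median change of the 6 genes was 0.22, 0.14 and 0.48 in that order, beside 0.01, 0.01 and -0.01 over all genes tested. Without Ift140 knockout flow replicate 3 that line again had 2 higher and 0 lower (3 and 0 at an unadjusted p under 0.05), with a median of 0.20, where 8.88% of all genes were higher and 7.73% lower.

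Krt8 was at 2008, 1906.5 and 1844 TPM under flow and 1363, 1396 and 1343 TPM static in Dync2h1 knockout cells. It was at 2214, 2315 and 1944 TPM under flow and 1675, 1655 and 1839.9 TPM static in Ift140 knockout cells, and at 1774.5, 1881 and 1853 TPM under flow and 1175, 1134 and 1174 TPM static in WT. In each genotype the 3 flow libraries lay above the 3 static ones, and the static level was lowest in WT. The log2 change was 0.49 in the Dync2h1 line (adjusted p = 0.000255), 0.32 in the Ift140 line (adjusted p = 0.0072) and 0.66 in WT (adjusted p = 1.42e-05). The Krt8 change differed by -0.17 between the Dync2h1 line and WT (95% interval -0.40 to 0.05, adjusted p = 0.682) and by -0.34 between the Ift140 line and WT (-0.56 to -0.11, adjusted p = 0.339; -0.27, adjusted p = 0.285, without Ift140 knockout flow replicate 3), neither of which was called.

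Krt18, the type I partner, was at 1412.5, 1324 and 1359.9 TPM under flow and 848, 883 and 893 TPM static in Dync2h1 knockout cells. It was at 1228, 1368 and 1058 TPM under flow and 883, 871 and 955 TPM static in Ift140 knockout cells, and at 1117, 1036 and 1009 TPM under flow and 656, 626 and 664 TPM static in WT. No flow library overlapped the static ones of its genotype. The log2 change was 0.64 in the Dync2h1 line (adjusted p = 5.27e-05), 0.42 in the Ift140 line (adjusted p = 0.00213) and 0.70 in WT (adjusted p = 2.25e-05). With the library labelled as replicate 3 of Ift140 knockout flow left out, the changes in that line were 0.39 for Krt8 (adjusted p = 0.000628) and 0.52 for Krt18 (adjusted p = 0.000109). A fit on the 6 Ift140 knockout libraries alone called neither (adjusted p = 0.238 for Krt8 and 0.134 for Krt18). That fit, which kept flow replicate 3, called 604 of all genes, against 2922 in the fit over 18 libraries. Quantile normalization ended the Krt8 call in the Dync2h1 line (0.33, adjusted p = 0.19) and the Ift140 line (0.36, adjusted p = 0.144). It called 2769 and 2890 of all genes there, against 3173 and 2922 with the scaling used here.

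The ductal keratins Krt7 and Krt19 were not called with flow in any genotype. Krt7 was at 433, 428 and 419 TPM under flow and 458, 482 and 456 TPM static in Dync2h1 knockout cells, and at 344, 368 and 315 TPM under flow and 344, 356 and 387 TPM static in Ift140 knockout cells. In WT it was at 278, 305 and 301 TPM under flow and 303, 321 and 305 TPM static. The changes with flow were -0.12 (95% interval -0.27 to 0.02), -0.08 (-0.23 to 0.06) and -0.07 (-0.21 to 0.07) in the Dync2h1 line, the Ift140 line and WT, none called by limma at adjusted p values of 0.228, 0.45 and 0.52. Without Ift140 knockout flow replicate 3 the change in that line was -0.03 (adjusted p = 0.836). Under quantile normalization the Krt7 change in the Dync2h1 line was -0.30 and was called (adjusted p = 0.0136).

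Krt19, a small type I keratin that lacks the usual tail, was called in none of the 11 comparisons, which held for no other of the 6 genes. It was at 418, 367 and 407 TPM under flow and 405, 397 and 390 TPM static in Dync2h1 knockout cells, and at 422, 513 and 385 TPM under flow and 419, 429 and 437 TPM static in Ift140 knockout cells. In WT it was at 430.1, 415 and 378 TPM under flow and 396, 348 and 372 TPM static. Flow and static libraries overlapped in every genotype, and the 95% intervals of the change were -0.20 to 0.19 in the Dync2h1 line, -0.17 to 0.22 in the Ift140 line and -0.06 to 0.33 in WT. The change in the Ift140 line was 0.03, and 0.12 (adjusted p = 0.395) without its flow replicate 3. The scaling mattered for it: with TPM as deposited, Krt19 was called higher in static Ift140 knockout than in static WT cells (0.26, adjusted p = 0.0452) and lower in Dync2h1 than in Ift140 knockout cells under flow (-0.29, adjusted p = 0.0143). Under quantile normalization it was called lower in Dync2h1 knockout than in WT cells under flow (-0.23, adjusted p = 0.029, beside -0.04 with the scaling used here) and than in Ift140 knockout cells under flow (-0.32, adjusted p = 0.00448, beside -0.14).

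**Figure D3:**
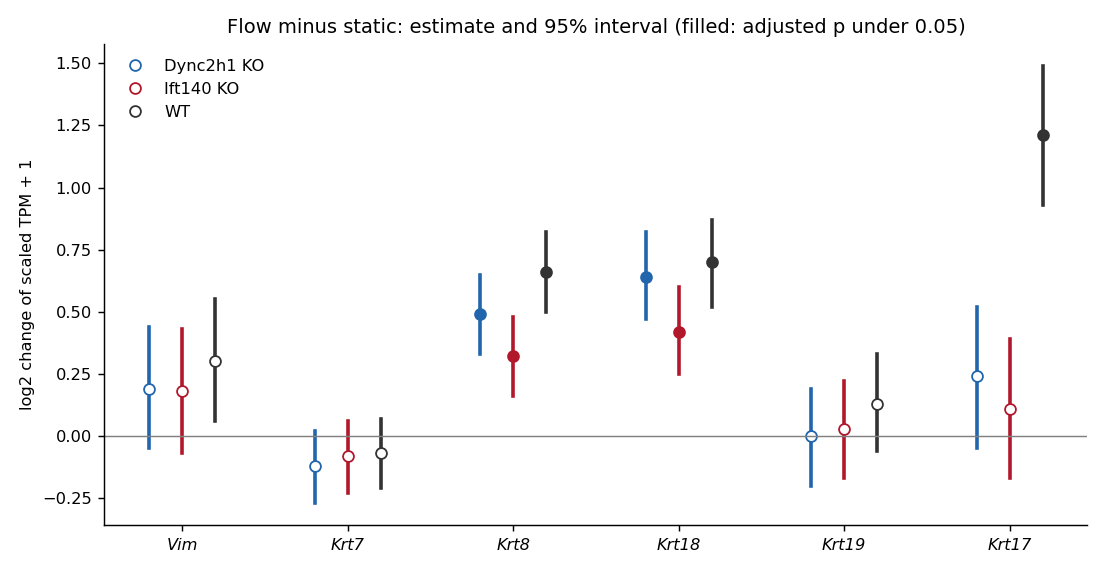
Log2 change of scaled TPM + 1, flow minus static, for the 6 genes in the Dync2h1 knockout, the Ift140 knockout and WT, with 95% intervals from the fit over 18 libraries; filled points were called at an adjusted p under 0.05. Krt8 and Krt18 are filled in all 3 genotypes, and Krt17 is filled in WT only, at 1.21.

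The make-up of the type II keratin transcripts differed with flow. The ratio of Krt8 to Krt7 TPM was 4.49 ± 0.125 under flow and 2.94 ± 0.0407 static in Dync2h1 knockout cells, 6.30 ± 0.138 and 4.76 ± 0.112 in Ift140 knockout cells, and 6.24 ± 0.132 and 3.75 ± 0.19 in WT (SD, n = 3 each). In no genotype did the flow and static libraries overlap. Krt18 to Krt19 behaved likewise among the type I transcripts, with 3.45 ± 0.145 under flow and 2.20 ± 0.0994 static in the Dync2h1 line, 2.78 ± 0.122 and 2.11 ± 0.0780 in the Ift140 line, and 2.59 ± 0.0854 and 1.75 ± 0.0783 in WT.

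Between the classes, summed type I keratins stayed between 0.629 and 0.783 of summed type II keratins in all 18 libraries. The summed type I keratins were 0.754 ± 0.0283 of the summed type II keratins under flow and 0.697 ± 0.0170 static in Dync2h1 knockout cells, 0.665 ± 0.0341 and 0.643 ± 0.0120 in Ift140 knockout cells, and 0.697 ± 0.0577 and 0.699 ± 0.0226 in WT (SD, n = 3 each). The ratio of Krt18 to Krt8 was highest in the Dync2h1 line, 0.712 ± 0.0227 under flow and 0.640 ± 0.0225 static, against 0.563 ± 0.0246 and 0.524 ± 0.00425 in the Ift140 line and 0.575 ± 0.0473 and 0.559 ± 0.00668 in WT. The lowest static Dync2h1 library, at 0.622, lay above the highest static library of WT, at 0.565. These ratios are taken within a library, so scaling between libraries does not enter them. The ratios are a description and were not tested. Without replicate 3 the 2 Ift140 knockout flow libraries averaged 6.37 for Krt8 to Krt7, 2.79 for Krt18 to Krt19, 0.573 for Krt18 to Krt8 and 0.676 for type I to type II.

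**Figure D4:**
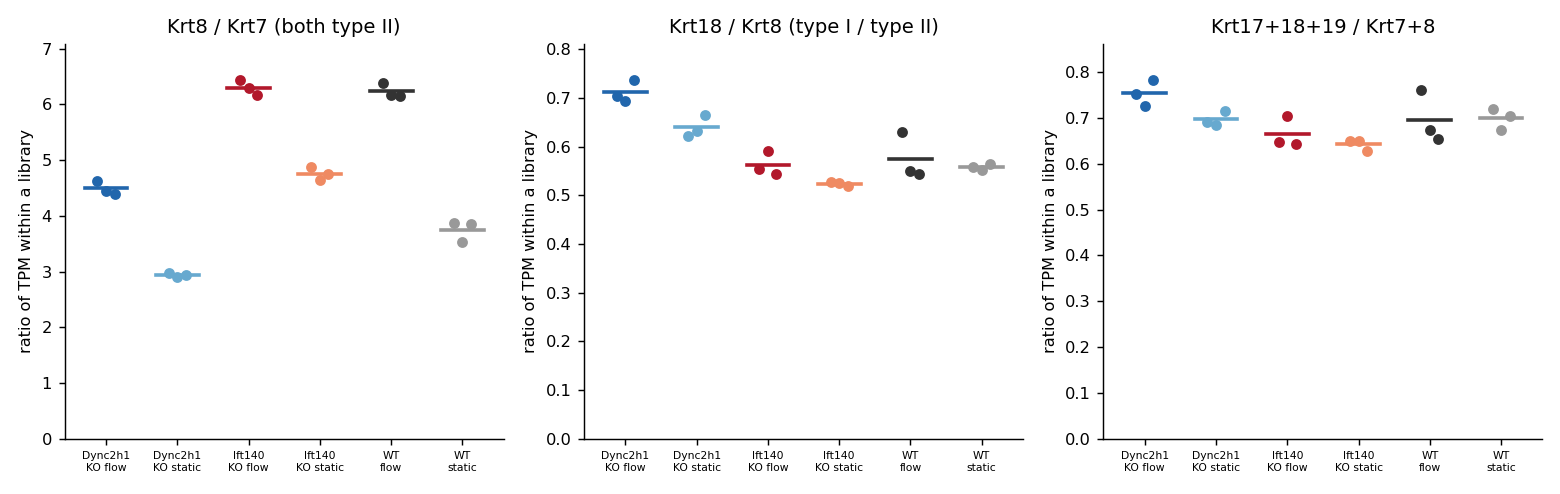
Ratios of keratin TPM within each library (points) with group means (bars): Krt8 to Krt7, Krt18 to Krt8, and summed type I to summed type II keratins. Krt8 to Krt7 is higher in the flow libraries than in the static libraries of every genotype, and Krt18 to Krt8 is highest in the Dync2h1 knockout.

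GENCODE places Gm671, an antisense gene, over Krt7 and Gm36026, a long non-coding RNA gene, over Krt8, each on the opposite strand. Whether the libraries keep strand is not given in the sources used here, so reads from such pairs cannot be told apart, and both genes are not analysed here. Part of the Krt8 sequence is repeated in Krt8-ps, a processed pseudogene on chromosome 7 at 23357125 to 23358069 that shares 621 words of 31 bases with Krt8, 32.2% of the Krt8 transcripts' words. Krt18 shares 131 words of 31 bases, 9.3% of the Krt18 transcripts' words, with Gm5200, which is not analysed here. Reads from such stretches can be assigned to either gene of a pair. Krt8-ps was listed at 362 TPM under flow and 262 TPM static in Dync2h1 knockout cells, at 439.9 and 339 TPM in Ift140 knockout cells and at 352 and 212 TPM in WT. It held 15.1% to 17.5% of the sum of Krt8 and Krt8-ps in the 18 libraries. With that sum in place of Krt8, the number of the 6 genes called stayed the same in all 11 comparisons.

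Over the 18 libraries, Krt8 and Krt18 correlated with Pearson r = 0.90 on the log2 scale, and with r = 0.75 for deviations from the group means. The libraries share genotype and condition within groups, so these values describe the data and were not tested. Among 9633 candidate genes the closest to Krt8 were Cyr61 (r = 0.966), a secreted matrix protein gene and known target of YAP signalling, Fhl2 (0.962) and Enoph1 (0.957). Cyr61 averaged 698 TPM under flow and 405 TPM static in Dync2h1 knockout cells, 849 and 529 TPM in Ift140 knockout cells, and 645 and 223 TPM in WT. For Krt18 the closest were Taf5l (0.981), Rtn4 (0.975) and Wdr77 (0.967), for Krt7 Mal2 (0.965), Fam60a (0.953) and Jag2 (0.950), and for Krt19 Anxa3 (0.770), Daxx (0.758) and Ext1 (0.752). Without Ift140 knockout flow replicate 3 the correlation of Krt19 with Ext1 was 0.868.

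Krt17 rose with flow in WT cells, and that rise was larger than in either knockout line. It was at 6.09, 5.79 and 6.055 TPM under flow and 4.51, 5.06 and 5.22 TPM static in Dync2h1 knockout cells, and at 8.53, 8.55 and 9.02 TPM under flow and 8.62, 7.56 and 7.80 TPM static in Ift140 knockout cells. In WT it was at 17.2, 22.1 and 21.2 TPM under flow and 10.5, 7.23 and 6.98 TPM static. Every WT flow library lay above every other library of the series.

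The Krt17 change was 1.21 in WT (95% interval 0.93 to 1.49, adjusted p = 1.03e-05, 2.45-fold in TPM), against 0.24 in the Dync2h1 line (-0.05 to 0.52, adjusted p = 0.247) and 0.11 in the Ift140 line (-0.17 to 0.39, adjusted p = 0.636; 0.09, adjusted p = 0.754, without its flow replicate 3). The difference between responses was -0.97 for the Dync2h1 line minus WT (SE 0.19, adjusted p = 0.0281) and -1.10 for the Ift140 line minus WT (SE 0.19, adjusted p = 0.0219). The 2 differences share the WT libraries. Krt17 was the 1 gene of the 6 called in either (at an unadjusted p under 0.05, 1 was lower for the Dync2h1 line and 3 for the Ift140 line, Krt8 and Krt18 besides Krt17), where 0.305% of all genes were called lower and 0.179% higher for the Dync2h1 line and 0.150% and 0.0778% for the Ift140 line.

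Both calls were close to the threshold. The Dync2h1 difference lost its call in 9 of 18 fits that left out 1 library, those without WT static replicates 2 or 3, WT flow replicates 2 or 3, Dync2h1 knockout static replicates 2 or 3 or any of the 3 Dync2h1 knockout flow replicates, with Krt17 adjusted p values from 0.0594 to 0.0906. The Ift140 difference lost it in 7, those without WT static replicates 2 or 3, WT flow replicates 2 or 3, Ift140 knockout static replicates 1 or 3 or Ift140 knockout flow replicate 1, with values from 0.0536 to 0.0822. Over all genes, the 38 calls of the Ift140 difference fell to between 12 and 28 in those 7 fits. The 81 of the Dync2h1 difference fell to 47 without WT static replicate 2 and 42 without Dync2h1 knockout static replicate 3. Without WT static replicate 1, where Krt17 kept both calls, they were 16 and 48 in that order. Without Ift140 knockout flow replicate 3, where it also kept both, they rose to 56 and 160. Over all 18 such fits the Krt17 differences ranged from -1.14 to -0.88 for the Dync2h1 line and from -1.27 to -1.0 for the Ift140 line. With the library labelled as replicate 3 of Ift140 knockout flow left out, the Ift140 difference was -1.12 (adjusted p = 0.0255).

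Between genotypes, Krt17 was lower than in WT in both knockout lines under flow, and in the Dync2h1 line in static culture too. The Dync2h1 line was 3.37-fold below WT under flow (log2 change -1.59, adjusted p = 3.47e-07) and 1.67-fold below it in static culture (-0.62, adjusted p = 0.00237). The Ift140 line was 2.32-fold below WT under flow (-1.12, adjusted p = 3.74e-05, and -1.14, adjusted p = 0.000129, with the library labelled as replicate 3 of Ift140 knockout flow left out), and in static culture the change was -0.02 (95% interval -0.30 to 0.26, adjusted p = 0.946). Set against the Ift140 line, the Dync2h1 line was lower by 0.47 under flow (log2 change -0.47, adjusted p = 0.0121; -0.45, adjusted p = 0.0345, without Ift140 knockout flow replicate 3) and by 0.60 static (-0.60, adjusted p = 0.00379).

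The keratin genes nearest to Krt17 were low. Of other genes nearby, Eif1 and Hap1 were not, while Gast had group means of at most 0.0626 TPM. Krt42, 1.9 kb away, had group means of at most 1.37 TPM and shares 48 words of 31 bases with Krt17. Eif1, 58.9 kb away, averaged 177 ± 10.1 TPM under flow and 96.3 ± 3.57 TPM static in the Dync2h1 line. In the Ift140 line Eif1 averaged 159 ± 47.7 and 85.8 ± 3.47 TPM, and in WT 139 ± 10.2 and 68.7 ± 2.48 TPM (SD, n = 3 each). The spread was thus widest in the group that holds Ift140 knockout flow replicate 3. Krt16, a stress-induced keratin 7.3 kb away, averaged 1.82 ± 0.582 TPM under flow and 0.967 ± 0.346 TPM static in Dync2h1 knockout cells, 0.207 ± 0.0146 and 0.218 ± 0.242 TPM in Ift140 knockout cells, and 1.32 ± 0.525 and 0.385 ± 0.265 TPM in WT (SD, n = 3 each). It was called higher with flow in WT (0.74, limma adjusted p = 0.0253), with no overlap between the groups, and is named here after its values were seen. The change with flow was 0.51 in the Dync2h1 line (adjusted p = 0.122) and 0.00 in the Ift140 line (adjusted p = 0.994; -0.01 without its flow replicate 3). The differences of these responses from that of WT were not called (-0.23, adjusted p = 0.904, for Dync2h1 and -0.74, adjusted p = 0.556, for Ift140, or 0.477 without that replicate). Krt16 shares 34 words of 31 bases with Krt17, 2.2% of those of Krt17. Krt14, which shares 180 words of 31 bases with Krt17, 11.8% of those of Krt17, had group means of at most 0.426 TPM. The genes closest to Krt17 across the 18 libraries were Tlr2 (r = 0.901), a receptor of innate immunity, Sgms1 (0.894), a sphingomyelin synthase gene, and Mios (0.884). Tlr2 averaged 15.2 TPM under flow and 9.49 TPM static in WT and between 6.99 and 10.2 TPM in the 4 knockout groups.

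Keratins of the knockout lines also differed from WT in static culture. There 3 of the 6 genes were higher and 2 lower in Dync2h1 knockout than in WT cells, where 13.5% of all genes were higher and 14.1% lower, and the median change was 0.17 beside -0.01 over all genes. In the Ift140 line 3 were higher and 1 lower, where 8.97% of all genes were higher and 9.08% lower, with a median of 0.22 beside 0.00. Both comparisons use the same 3 WT libraries. The genes called higher were Krt7, Krt8 and Krt18 in both.

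Krt7 was higher by 0.59 in the static Dync2h1 line (95% interval 0.44 to 0.73, adjusted p = 9.6e-06), by 1.504-fold in TPM, and by 0.23 in the static Ift140 line (0.08 to 0.37, adjusted p = 0.0283). The direct comparison of the Dync2h1 line with the Ift140 line gave 0.36 (adjusted p = 0.00105), so the 3 static groups were ordered. Krt18 was higher by 0.43 in the Dync2h1 line (adjusted p = 0.00102) and by 0.48 in the Ift140 line (adjusted p = 0.000897), and between the lines it differed by -0.04 (-0.22 to 0.13, adjusted p = 0.756). Krt8 was higher by 0.24 in the Dync2h1 line (adjusted p = 0.0269) and by 0.57 in the Ift140 line (adjusted p = 8.65e-05), and the Dync2h1 line was below the Ift140 line by 0.33 (-0.33, adjusted p = 0.0043).

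The smaller of these static calls were not firm. Krt8 in the Dync2h1 line missed the threshold without WT static replicates 1, 2 or 3 or Dync2h1 knockout static replicates 2 or 3 (adjusted p from 0.0505 to 0.0918), and Krt7 in the Ift140 line without WT static replicates 1 or 3 or Ift140 knockout static replicate 3 (0.0852 to 0.114). Calls over all genes fell in those fits too, from 4618 to between 3548 and 3825 for the Dync2h1 line and from 3018 to between 2060 and 2295 for the Ift140 line. They were 2167 for the Ift140 line without WT static replicate 2, where Krt7 kept its call. Krt8 also missed it with no filter on low values (adjusted p = 0.0712) and with scaling factors from all gene rows (0.0704), and Krt7 with no trend (0.055), in a fit on the groups compared alone (0.0609) and with factors from all gene rows (0.109). Further, quantile normalization ended the calls of Krt8 (0.07, adjusted p = 0.789) and Krt18 (0.21, adjusted p = 0.134) in the Dync2h1 line.

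Under flow the Dync2h1 line had 2 genes higher than WT, Krt7 and Krt18, and 2 lower, Vim and Krt17, where 16.1% of all genes were higher and 14.0% lower; the median of the 6 was 0.01, equal to that of all genes. Krt7 was higher by 0.53 (adjusted p = 2.27e-05) and Krt18 by 0.37 (adjusted p = 0.00273), while Krt8 changed by 0.06 (95% interval -0.10 to 0.22, adjusted p = 0.571), a direction that turned to -0.07 with TPM as deposited and -0.22 under quantile normalization. The Krt18 call ended under both (0.24, adjusted p = 0.0538, with TPM as deposited, and 0.06, adjusted p = 0.693, under quantile normalization). The Ift140 line had 2 higher, Krt7 and Krt8, and 2 lower, Vim and Krt17, where 7.73% of all genes were higher and 7.52% lower, with a median of 0.15 beside 0.01, or 0.23 beside 0.01 without its flow replicate 3.

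In the Ift140 line under flow, Krt7 was higher than in WT by 0.21 (adjusted p = 0.0421) and Krt8 by 0.23 (adjusted p = 0.0496), and Krt18 differed by 0.20 (95% interval 0.03 to 0.38, adjusted p = 0.114). With the library labelled as replicate 3 of Ift140 knockout flow left out the changes were 0.27 for Krt7 (adjusted p = 0.00939), 0.30 for Krt8 (adjusted p = 0.00469) and 0.30 for Krt18 (adjusted p = 0.00799), so 3 of the 6 genes were higher and 2 lower, where 7.61% and 6.70% of all genes were. Leaving out another library instead ended the Krt7 call in 15 of 18 fits, except those without Ift140 knockout static replicates 1 or 3 or flow replicate 3 (adjusted p 0.051 to 0.153), and the Krt8 call in 16, except those without Ift140 knockout static replicate 3 or flow replicate 3 (0.0586 to 0.141). Over all genes, the 2550 calls of this comparison became 1803 without WT flow replicate 1 and 3068 without Ift140 knockout flow replicate 2. Both of those fits lost both calls.

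With the 2 knockout lines set against each other, the Dync2h1 line had 1 gene higher and 2 lower under flow, where 17.3% of all genes were higher and 15.6% lower, and 1 higher and 3 lower in static culture, where 10.8% were higher and 12.2% lower. The medians of the 6 were -0.15 and -0.22, beside 0.00 and 0.01 over all genes. Krt7 was the gene higher in both conditions (0.32, adjusted p = 0.00183, under flow), and Vim and Krt17 were lower in both. The Krt7 call under flow ended with TPM as deposited (0.17, adjusted p = 0.157) and under quantile normalization (0.13, adjusted p = 0.232), and Krt8 under flow (-0.17, adjusted p = 0.1) was called with TPM as deposited (-0.32, adjusted p = 0.00776), under quantile normalization (-0.58, adjusted p = 0.013) and with the library labelled as replicate 3 of Ift140 knockout flow left out (-0.24, adjusted p = 0.0108). Without that library 1 gene was higher, Krt7 (0.26, adjusted p = 0.00605), and 3 were lower, with a median of -0.24, where 13.8% of all genes were higher and 13.5% lower. Krt18 under flow (0.17, adjusted p = 0.122) was called without Ift140 knockout flow replicate 2 (0.26, adjusted p = 0.0182) and was at 0.07 (adjusted p = 0.457) without replicate 3.

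**Figure D5:**
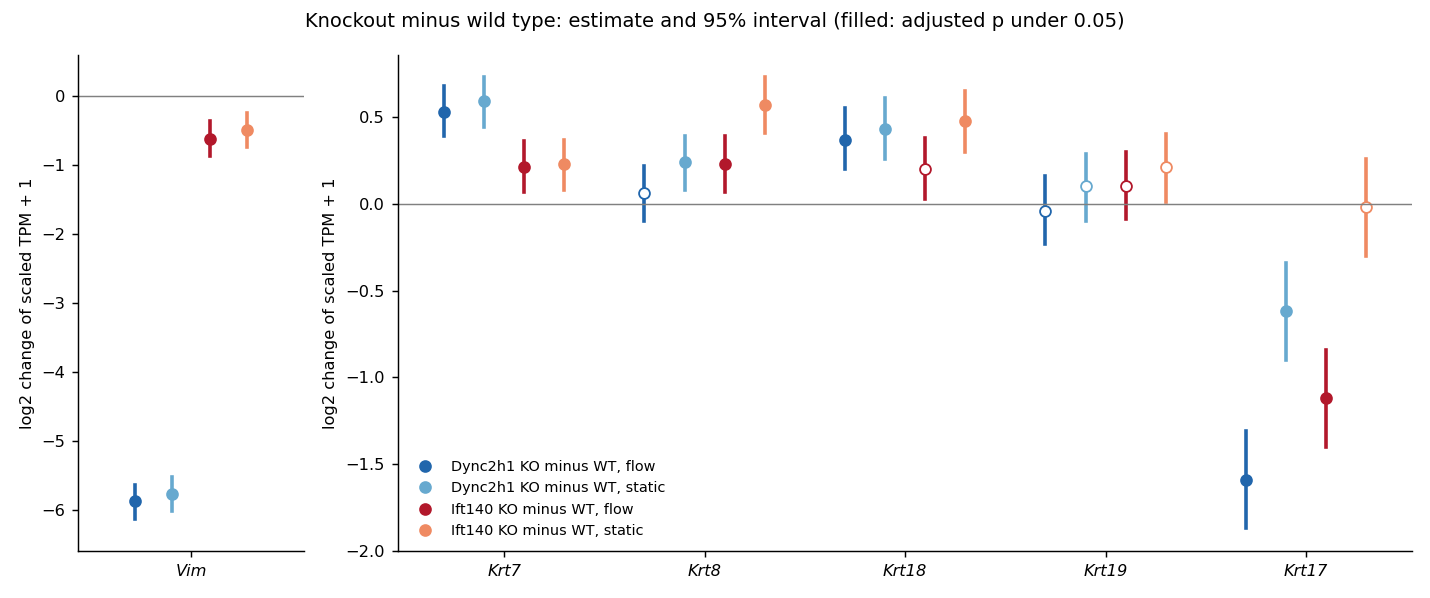
Log2 change of scaled TPM + 1, each knockout minus WT under flow and static, with 95% intervals from the fit over 18 libraries, Vim on its own axis at the left; filled points were called at an adjusted p under 0.05. Vim is near -6 in the Dync2h1 line, Krt7 is above 0 and filled in all 4 comparisons, and Krt17 is lowest under flow.

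Other keratins were scarce, and those present differed between the lines. Of 25 further keratin genes, 5 were tested. By limma, flow raised 0 of these in the Dync2h1 line, 1 in the Ift140 line (Krt20) and 1 in WT (Krt16), and lowered 0 in each; at an unadjusted p under 0.05 2, 1 and 3 were higher and 0 lower. Of all genes, flow raised 10.8%, 9.21% and 10.2% and lowered 8.15%, 8.27% and 10.3% in that order. The median log2 change with flow over these 5 genes was 0.11 in the Dync2h1 line, 0.00 in the Ift140 line and 0.40 in WT, against 0.01, 0.01 and -0.01 over all genes tested. Under flow, Krt4 and Krt20 were higher than in WT in both knockout lines, while Krt80 was lower in the Dync2h1 line and Krt16 in the Ift140 line (-0.92, adjusted p = 0.00979). These were 2 higher and 1 lower of 5 in each line, where 16.1% of all genes were higher and 14.0% lower in the Dync2h1 line and 7.73% and 7.52% in the Ift140 line. The same 3 calls of the Ift140 line were made without its flow replicate 3 (1.23 for Krt4, 2.24 for Krt20 and -0.93 for Krt16). In that fit 7.61% of all genes were higher and 6.70% lower. The Krt20 call with flow was made without that replicate too (0.83, adjusted p = 0.00571). Krt4 was low, averaging 1.38 TPM in Dync2h1 knockout, 1.99 TPM in Ift140 knockout and 0.178 TPM in WT cells under flow. Krt20, a keratin of intestinal and urothelial surface cells, averaged 3.02 ± 0.437 TPM under flow and 2.04 ± 0.44 TPM static in Dync2h1 knockout cells, 10.9 ± 0.419 and 5.65 ± 1.03 TPM in Ift140 knockout cells, and 1.49 ± 0.0686 and 0.914 ± 0.388 TPM in WT (SD, n = 3 each). It was higher than in WT in the Dync2h1 line (0.69 under flow, adjusted p = 0.00418) and in the Ift140 line (2.25, adjusted p = 1.96e-07), and it is named here after its values were seen, since its mean was under the 5 TPM set for naming. Krt80, the highest of these genes, averaged 10.5 ± 1.18 TPM under flow in Dync2h1 knockout, 20.8 ± 7.81 TPM in Ift140 knockout and 19.7 ± 1.53 TPM in WT cells, and was lower in the Dync2h1 line than in WT (-0.85, adjusted p = 0.00635) and than in the Ift140 line (-0.87, adjusted p = 0.00559). Replicate 3 of Ift140 knockout flow had 29.8 TPM of Krt80, beside 16.8 and 15.8 TPM in the other 2, and without it the difference between the lines was -0.59 (adjusted p = 0.0243).

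Of 26 genes of filament linkers, desmosomes and proteins associated with them, 25 were found and 21 tested. Flow raised 4 and lowered 1 in the Dync2h1 line, raised 3 and lowered 3 in the Ift140 line, and raised 4 and lowered 2 in WT, with list medians of 0.04, -0.01 and -0.01 beside 0.01, 0.01 and -0.01 over all genes. Of all genes, 10.8% were raised and 8.15% lowered in the Dync2h1 line, 9.21% and 8.27% in the Ift140 line and 10.2% and 10.3% in WT. Without Ift140 knockout flow replicate 3 that line had 2 raised and 2 lowered, with a median of -0.14, where 8.88% of all genes were raised and 7.73% lowered. Sfn, which encodes stratifin, an adaptor protein that binds phosphorylated keratins, averaged 60.7 ± 0.591 TPM under flow and 23.6 ± 1.34 TPM static in Dync2h1 knockout cells, 46.7 ± 3.99 and 23.7 ± 0.67 TPM in Ift140 knockout cells, and 44.2 ± 1.07 and 16.7 ± 0.216 TPM in WT (SD, n = 3 each). Its rise was 1.33 in the Dync2h1 line (adjusted p = 3.15e-09), 0.94 in the Ift140 line (adjusted p = 1.83e-07) and 1.36 in WT (adjusted p = 2.25e-09). Fam83h, whose human protein helps to organise keratin filaments, rose by 0.69, 0.63 and 0.59 in the same order, and Plec, the cytolinker plectin, by 0.67, 0.49 and 0.61, though the Plec call in the Ift140 line ended without its flow replicate 3 (0.28, adjusted p = 0.0947). Sfn, Fam83h and Pkp2 were called in the Ift140 line without it too. Pkp2, a plaque protein of desmosomes, fell by 0.45, 0.51 and 0.36 on the log2 scale.

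Against WT, 6 of the 21 tested genes of this list were higher and 2 lower in the Dync2h1 line under flow. In static culture 6 were higher and 3 lower. The list medians were 0.17 under flow and 0.21 static, beside 0.01 and -0.01 over all genes. Of all genes, 16.1% were higher and 14.0% lower under flow, and 13.5% and 14.1% static. In the Ift140 line limma called 0 higher and 3 lower under flow (4 higher and 6 lower at an unadjusted p under 0.05) and 3 higher and 3 lower static, with medians of 0.02 and -0.04 beside 0.01 and 0.00. There 7.73% of all genes were higher and 7.52% lower under flow, and 8.97% and 9.08% static. Without flow replicate 3 of that line limma called 0 higher and 4 lower under flow (1 and 7 at an unadjusted p under 0.05), with a median of -0.11. In that fit 7.61% of all genes were higher and 6.70% lower. Perp, a membrane protein of desmosomes, averaged 59.6 ± 2.59 TPM in Dync2h1 knockout, 28.8 ± 2.98 TPM in Ift140 knockout and 39.4 ± 1.61 TPM in WT cells under flow (SD, n = 3 each), so it was higher than in WT in 1 line (0.58, adjusted p = 3.95e-05) and lower in the other (-0.44, adjusted p = 0.00109, and -0.37, adjusted p = 0.00325, without Ift140 knockout flow replicate 3). Dst, a large linker of filaments to hemidesmosomes and microtubules, fell to 113 ± 9.95 TPM in Dync2h1 knockout cells, against 241 ± 47.9 TPM in WT under flow (-1.07, adjusted p = 0.000785). Pkp1, another desmosomal plaque protein, was lowest in the Ift140 line, at 7.75 ± 0.904 TPM against 23.4 ± 1.00 TPM in WT under flow (-1.48, adjusted p = 5.17e-07, and -1.54, adjusted p = 1.78e-06, without its flow replicate 3).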

How the data were processed

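RNA sequencing values of 18 libraries in 6 groups of 3 were analysed. Per the submitters' processing notes, FastQC 0.11.5, Bowtie2 2.1.0, RSEM 1.2.31 and the builds mm10 and GRCm38.p5 were used; settings and annotation release are not given in the sources used here. The authors deposited TPM per gene name, so depth is unknown. A total row was left out. Libraries were scaled by an unweighted trimmed mean of log ratios (30% of ratios and 5% of abundances trimmed; factors 0.890 to 1.13), a gene entered with 1 TPM or more in 3 libraries or more, and log2(scaled TPM + 1) was fitted with limma 3.58.1 in R 4.3.3 with 6 group means, 12 residual degrees of freedom, a mean-variance trend and Benjamini-Hochberg adjustment. The fit was first tested on simulated libraries in which some genes had been changed. The 6 genes and all gene lists were chosen with earlier results of these data known. The rule was to name listed genes where called and averaging at least 5 TPM, up to 4 per list and comparison. Exceptions included Krt4, Krt16, Krt20 and Synm, which averaged less. Cell type markers, such as Scnn1g and Pax8, were named whatever their level or call. Promoters came from RefSeq, coordinates from GENCODE vM21. Alternatives covered scaling, filter, pseudocount, trend, threshold, libraries fitted, replicate block and leaving out each library. Markers of endothelium, leukocytes, urothelium and proximal tubule summed to 9.13 to 23.1, 10.8 to 22.5, 1.87 to 8.73 and 7.28 to 453 TPM over the libraries, and those of collecting duct and renal epithelium to 604 to 996 TPM.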

Additional observations from a re-analysis of the deposited data

Results flagged for a closer look

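The flow response of Krt17 differed between genotypes by the test of the difference itself. It was smaller in the Dync2h1 knockout than in WT by -0.97 on the log2 scale (adjusted p = 0.0281, limma). It was smaller in the Ift140 knockout than in WT by -1.10 (adjusted p = 0.0219). Both calls were close to the threshold. They were lost in 9 and 7 of 18 fits that left out 1 library, in that order, and with the replicate block. Both differences share the WT libraries, in which Krt17 was higher in 3 of 3 flow libraries than in any static one.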

How the results depend on the processing

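Of 1980 single-gene values under 30 alternatives, 1850 kept their direction and side of the threshold, 95 lost their call, 15 gained one and 20 reversed, none of which had been called. The number of the 6 genes called in the Ift140 knockout against WT under flow, 4, fell to 2 (Vim and Krt17) in several settings. These were TPM as deposited, quantile normalization, no filter, no trend, an adjusted p under 0.01, only the groups compared and scaling factors from all gene rows. The last was chosen after seeing the data, like the sum of Krt8 and Krt8-ps. Over all genes, 2550 were called in this comparison with the fit used here. In the order just given the settings had 1970, 2543, 2180, 2456, 1293 and 616, that for factors from all gene rows not being shown. Krt8 alone lost its call there with a pseudocount of 5 (limma adjusted p = 0.0568) and with the replicate block (0.0673). Such smaller moves of a count are not listed. For flow in the Ift140 knockout the 2 called became 1 (Krt18) under quantile normalization and 0 with only the groups compared. Over all genes the 2922 called for that flow comparison became 2890 and 604. For static Dync2h1 knockout against WT the 5 became 3 (Vim, Krt7, Krt17) under quantile normalization, where the 4618 called over all genes became 4626. The 1 called in each response difference, Krt17, became 0 with an adjusted p under 0.01 and with only the groups compared (Krt17 adjusted p = 0.0544 for Dync2h1 and 0.152 for Ift140). Over all genes the 81 called for Dync2h1 became 35 at an adjusted p under 0.01 and 152 with only the groups compared. The 38 called for Ift140 became 11 and 6. The cause was not tested.

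Reversed values were 0.03 for Krt17 in static Ift140 knockout against WT and -0.07 for Krt8 in Dync2h1 knockout against WT under flow with TPM as deposited, -0.02 for Krt19 with flow in the Ift140 knockout, -0.22 for Krt8 in Dync2h1 knockout against WT and -0.17 for Krt18 in Dync2h1 against Ift140 knockout, both under flow, and 0.01 for the Vim response difference of the Dync2h1 knockout under quantile normalization, and 0.02 for Krt19 with flow in the Dync2h1 knockout with factors from all gene rows. Leaving out 1 library gave 2 to 5 called in the Ift140 knockout against WT under flow and 0 to 1 in each response difference. Calls over all genes moved in such fits as well, for example from 2550 to 1803 in the first of these without WT flow replicate 1 and to 3068 without Ift140 knockout flow replicate 2. The values that reversed in such fits ranged from -0.06 to 0.05 (Krt19, flow, Dync2h1), -0.09 to 0.12 (Krt19, flow, Ift140), -0.09 to 0.02 (Krt19, Dync2h1 against WT, flow), -0.01 to 0.19 (Krt19, Ift140 against WT, flow), -0.11 to 0.15 (Krt17, static Ift140 against WT), -0.24 to 0.01 (Vim response, Dync2h1) and -0.06 to 0.04 (Krt7 response, Ift140).

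Deviations of same-numbered libraries from their group means were weakly correlated at most (2 of 27 pairs over 0.1, range -0.18 to 0.14). The pairs reuse the same 18 libraries and the labels state no batch. This check therefore cannot show whether the numbers pair the libraries. With the replicate block both response differences had 0 calls (Krt17 adjusted p = 0.0668 for Dync2h1 and 0.0556 for Ift140).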
